A study of Mus musculus with 24 samples.

Results

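Promoter peaks are the regions of open chromatin at transcription start sites. They were taken as every peak of the deposited count table whose midpoint lay at most 1000 bases from a start site that the deposited comparison table lists on the same chromosome, whatever the peak's length. The rule found 14348 promoter peaks among 144411 peaks (9.94%), of which 13867 passed the filter on low counts and 481 did not. The assay was ATAC-seq, where Tn5 transposase inserts sequencing adapters into accessible DNA, and the cells were bone marrow-derived macrophages of C57BL/6 mice. The marrow came from male mice of 8 to 10 weeks and was differentiated for 5 days in L-cell conditioned medium, a source of macrophage growth factor. Macrophages of 2 genotypes were used, GRIP1 KO (LysM-Cre+/+; GRIP1fl/fl) and WT (LysM-Cre+/+; GRIP1wt/wt), so both carry the Cre driven by the lysozyme 2 promoter of myeloid cells. Each genotype received 10 ng/ml IL4, 100 nM dexamethasone (Dex) or vehicle for 24 h, with 4 libraries in each of the 6 groups. The vehicle label gives 25 h in 1 field and 24 h in the sample title. Whether a group's 4 libraries stem from different mice or cultures is not stated in the labels, so p-values measure the spread between libraries, which may be technical.

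Promoters hold the sites where general transcription factors and RNA polymerase II assemble, and many promoters of widely used genes lie in CpG islands that stay free of nucleosomes in most cells. IL4 signals through its receptor and the kinase JAK1 to the transcription factor STAT6, which sets macrophages towards the alternatively activated state. Dexamethasone is a synthetic ligand of the glucocorticoid receptor, which represses inflammatory genes and activates others. GRIP1, encoded by Ncoa2, is a p160 coregulator that the glucocorticoid receptor and other factors recruit in macrophages.

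The 250 bases before the start sites of 9 promoters show the sequence types among the peaks described below, taken from RefSeq for GRCm38.p6, the build named mm10 in the labels. The sequences to show were chosen after the values were seen. The first set is every gene of the list of IL4 and STAT6 targets whose peak was called higher with IL4 at a mean of at least 1 CPM (counts scaled to a common library size) and whose window holds TTC, any 4 bases and GAA, the spacing that STAT6 prefers. These are Pdcd1lg2 (chr19:29410669-29410918, plus strand), Tfec (chr6:16898442-16898691, minus strand), Clec7a (chr6:129472780-129473029, minus strand) and Itgax (chr7:128129300-128129549, plus strand). The capitals mark the match.
Pdcd1lg2: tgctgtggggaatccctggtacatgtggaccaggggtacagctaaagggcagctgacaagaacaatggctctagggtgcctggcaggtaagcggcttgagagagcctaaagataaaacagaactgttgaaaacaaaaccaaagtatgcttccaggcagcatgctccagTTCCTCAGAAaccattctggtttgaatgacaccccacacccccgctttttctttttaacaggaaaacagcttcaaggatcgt
Tfec: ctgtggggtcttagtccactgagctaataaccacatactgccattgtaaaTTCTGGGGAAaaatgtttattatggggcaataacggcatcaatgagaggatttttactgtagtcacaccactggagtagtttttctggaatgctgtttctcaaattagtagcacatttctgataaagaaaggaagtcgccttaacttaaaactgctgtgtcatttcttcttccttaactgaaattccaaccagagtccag
Clec7a: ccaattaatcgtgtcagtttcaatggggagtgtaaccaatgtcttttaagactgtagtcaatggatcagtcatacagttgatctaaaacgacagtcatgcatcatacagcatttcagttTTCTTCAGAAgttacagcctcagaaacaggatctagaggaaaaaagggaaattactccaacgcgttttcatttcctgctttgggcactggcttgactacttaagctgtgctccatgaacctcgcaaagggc
Itgax: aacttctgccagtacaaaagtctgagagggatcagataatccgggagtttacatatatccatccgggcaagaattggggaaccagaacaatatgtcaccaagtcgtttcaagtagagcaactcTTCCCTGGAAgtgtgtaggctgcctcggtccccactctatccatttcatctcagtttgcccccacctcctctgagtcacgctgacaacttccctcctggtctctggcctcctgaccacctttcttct
The second set shows promoters that rose with Dex and hold ACANNNTGT, the core of the glucocorticoid receptor's palindrome, marked in capitals. They are Ctla2a (chr13:60936626-60936875, minus strand), Usp54 (chr14:20618355-20618604, minus strand) and Notch4 (chr17:34564045-34564294, plus strand).
Ctla2a: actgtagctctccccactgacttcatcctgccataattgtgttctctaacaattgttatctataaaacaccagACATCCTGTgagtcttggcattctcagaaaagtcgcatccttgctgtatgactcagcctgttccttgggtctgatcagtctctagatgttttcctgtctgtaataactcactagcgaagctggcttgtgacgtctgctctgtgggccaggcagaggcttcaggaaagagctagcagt
Usp54: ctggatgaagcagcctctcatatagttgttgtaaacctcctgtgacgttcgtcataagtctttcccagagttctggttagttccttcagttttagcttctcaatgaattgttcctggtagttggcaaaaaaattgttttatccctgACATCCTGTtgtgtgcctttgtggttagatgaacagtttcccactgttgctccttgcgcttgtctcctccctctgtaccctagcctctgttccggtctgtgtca
Notch4: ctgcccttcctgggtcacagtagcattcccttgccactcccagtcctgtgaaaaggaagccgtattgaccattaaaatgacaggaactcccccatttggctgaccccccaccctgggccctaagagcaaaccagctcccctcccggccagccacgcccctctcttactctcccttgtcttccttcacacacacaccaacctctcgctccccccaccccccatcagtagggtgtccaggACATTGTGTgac
The third set shows G- and C-rich promoters that fell with IL4, with GGGCGG, the GC box bound by Sp1-type factors, in capitals on either strand. They are Bnip3 (chr7:138909507-138909756, minus strand) and Kpnb1 (chr11:97187893-97188142, minus strand).
Bnip3: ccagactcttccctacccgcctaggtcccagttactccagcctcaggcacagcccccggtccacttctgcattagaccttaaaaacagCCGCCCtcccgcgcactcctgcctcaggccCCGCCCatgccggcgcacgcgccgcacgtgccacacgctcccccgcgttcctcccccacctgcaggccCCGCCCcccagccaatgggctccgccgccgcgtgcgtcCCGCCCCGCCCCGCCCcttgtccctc
Kpnb1: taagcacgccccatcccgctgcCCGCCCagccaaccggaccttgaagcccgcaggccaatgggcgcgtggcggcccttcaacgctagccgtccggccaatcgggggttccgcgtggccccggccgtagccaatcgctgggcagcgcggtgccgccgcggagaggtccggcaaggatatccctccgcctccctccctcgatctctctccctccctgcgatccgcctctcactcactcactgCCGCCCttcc
The percentage of G and C in the full window of 300 bases was 71.7% for Bnip3 and 72% for Kpnb1, and between 40.3% for Tfec and 58.3% for Notch4 in the 7 others. Letters that match a motif describe the sequence and do not show that a factor binds there.

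Promoter peaks were longer and more accessible than the other peaks. Their median length was 872 bases, against 364 for other peaks, and 35.8% of them reached 1000 bases, against 6.34% of other peaks. Their median level over the 24 libraries was 16.8 CPM, against 2.54 CPM for other peaks. Per length the medians were 17.9 CPM per kb for promoter peaks and 6.45 CPM per kb for other peaks. The median distance between a promoter peak's midpoint and its start site was 162.5 bases, and 64.3% lay within 250 bases. They covered 13337 listed start sites, 12395 of them with 1 peak, and 12088 genes. By gene type 13390 belonged to protein-coding genes, 668 to long noncoding RNAs and 174 to microRNAs. The deposited comparison table holds 6951 promoter peaks and none of the 5139 that reach 1000 bases. Across the edge of the rule nothing changed abruptly: the 427 tested peaks over 900 and up to 1000 bases away had a median of 3.84 CPM, and the 464 over 1000 and up to 1100 bases away had 4.07 CPM.

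The promoter peak with the highest level was that of Sp1, which encodes the GC-box factor itself, at 227 CPM over the 24 libraries. Kpnb1, the nuclear import receptor importin beta, followed at 198 CPM, Khsrp, an RNA-binding splicing and decay factor, at 182 CPM, and Cic, a transcriptional repressor, at 176 CPM. Per length Khsrp was the highest of all promoter peaks, at 192 CPM per kb, against 153 for Cic and 138 for Sp1. The 10 highest also held Crlf2, Fam72a, 4932412D23Rik, Mob3a, Rab40c and Mtmr4, the lowest of them at 165 CPM. With libraries scaled on all peaks, all 10 had a negative log2 fold change with IL4 in both genotypes. It lay between -0.29 for Kpnb1 and -0.09 for 4932412D23Rik in KO macrophages, and between -0.40 for Kpnb1 and -0.23 for 4932412D23Rik in WT. Scaling on promoter peaks alone moved promoter peaks up by a median of 0.17 in KO, more than the smallest of these falls. The 10 peaks were not looked at under that scaling. In KO 3 of the 10 did not pass the edgeR test. The Sp1 peak had 182, 201, 190.2 and 205 CPM in KO macrophages with IL4, against 215, 226, 229 and 255 CPM with vehicle. In WT it had 200.3, 178, 196 and 187 CPM with IL4, against 244, 247, 262 and 228 CPM with vehicle. The libraries with IL4 did not overlap those with vehicle in either genotype.

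Libraries held between 5820149 and 21939330 counts in peaks, and the share of those counts in promoter peaks moved with the treatment. It was 30.4 ± 0.497% in KO macrophages with IL4, 34.2 ± 0.463% with Dex and 33.3 ± 0.770% with vehicle (mean ± SD, n = 4 each). In WT it was 30.2 ± 0.280% with IL4, 34.7 ± 0.618% with Dex and 33.8 ± 0.208% with vehicle. Every library with IL4 lay below every library with vehicle of its genotype, by 2.90 percentage points between the means in KO and 3.57 in WT. The means with Dex were 0.887 and 0.839 percentage points above vehicle in KO and WT, and these libraries overlapped with vehicle in both genotypes. Since the share is a part of a whole, a smaller share in promoters and a larger one elsewhere are the same measurement. Fewer cells with an open promoter and less opening per cell cannot be told apart in such bulk samples.

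**Figure D1:**
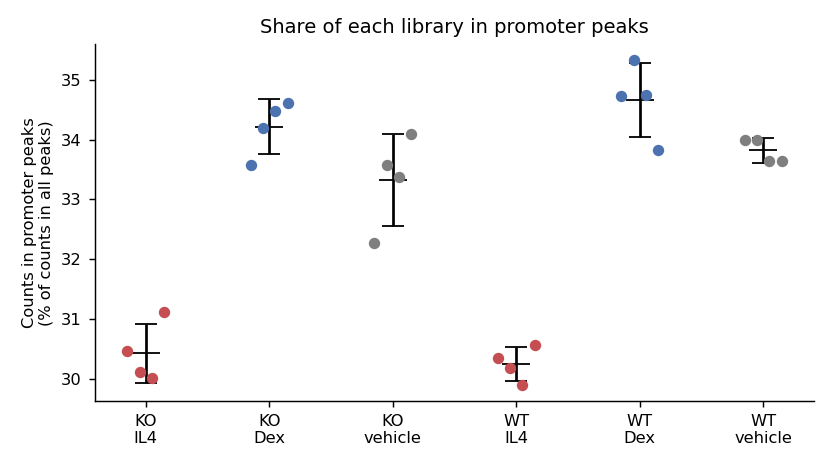
Share of each library's counts that fell in promoter peaks, in percent of the counts in all peaks, by group. Points are libraries and bars are the mean and SD of 4. The 4 libraries with IL4 sit between 30.0% and 31.1% in KO and between 29.9% and 30.6% in WT, below all the others.

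IL4 lowered the accessibility of many promoters slightly, relative to the bulk of all peaks. In KO macrophages 5025 promoter peaks were lower and 782 higher with IL4 than with vehicle (edgeR quasi-likelihood test, Benjamini-Hochberg adjusted p below 0.05 over all 130103 peaks tested), or 36.2% and 5.64%, where 13.9% and 17.0% of all peaks were called. In WT 5965 were lower and 870 higher, or 43.0% and 6.27%, where 16.1% and 19.3% of all peaks were called. The median log2 fold change of promoter peaks was -0.17 in KO and -0.21 in WT, against 0.02 and 0.02 for other peaks. The falls were small: the median of the called ones was -0.29 in KO and -0.31 in WT, and 38 and 71 of them fell by 1 or more on the log2 scale. The rises were larger, with a median of 0.69 in KO and 0.70 in WT among the called ones. Of the 13867 promoter peaks tested, 4263 were called lower in both genotypes, or 84.8% of the KO list and 71.5% of the WT list. Of all peaks tested 13452 (10.3%) were, out of 18113 lower in KO and 20942 in WT. For the promoter peaks called higher the number in both was 642, or 82.1% of the KO list and 73.8% of the WT list. Of all peaks tested 18597 (14.3%) were higher in both, out of 22160 in KO and 25116 in WT.

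How many promoters fell depended on how the libraries were scaled. The values above use TMM factors from all peaks, which set the bulk of all peaks to no change. With TMM factors from promoter peaks alone, which set the bulk of promoters to no change, promoter log2 fold changes with IL4 moved up by a median of 0.17 in KO and 0.21 in WT. The calls then split into 1184 lower and 1607 higher in KO and 1440 lower and 1884 higher in WT. Loess offsets, which remove a trend with level, left 2350 lower and 1166 higher in KO and 2818 lower and 1272 higher in WT. A WT promoter that fell by more than about 0.21 therefore fell beyond the bulk of promoters as well, and smaller falls are relative to the bulk of all peaks. For the same reason each list below is given with its counts under the promoter-only scaling where these matter.

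**Figure D2:**
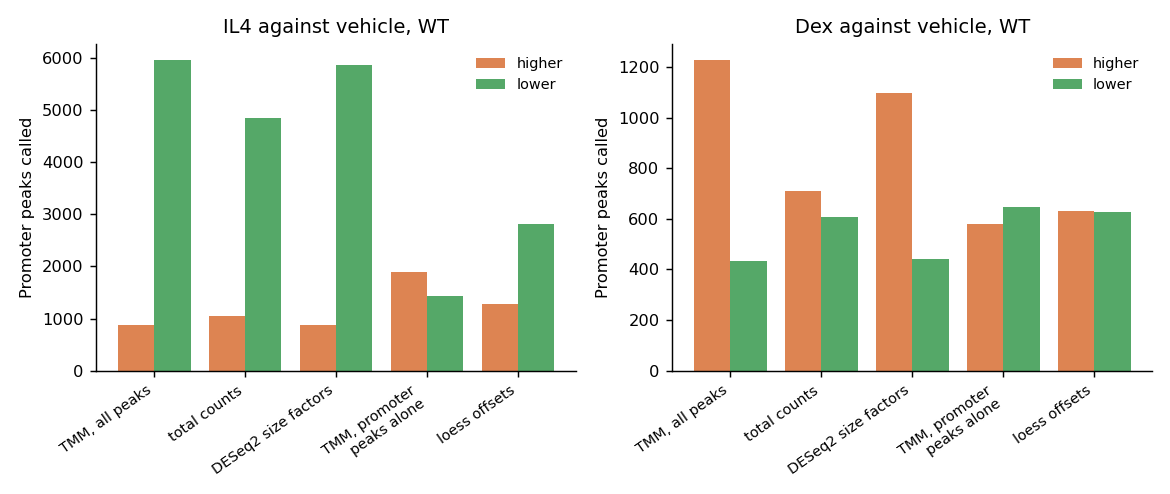
Number of promoter peaks called higher or lower in WT macrophages with IL4 (left) and with Dex (right) under 5 ways of scaling the libraries. With IL4 the lower calls outnumber the higher ones under 4 of the 5, and under TMM on promoter peaks alone there are 1884 higher and 1440 lower.

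The median change with IL4 differed between peaks of different level. Among promoter peaks at 30 to 100 CPM the median log2 fold change was -0.20 in KO and -0.25 in WT, and 59.9% and 74.8% of them were called lower. At 1 to 3 CPM the medians were -0.03 and -0.07, with 3.86% and 7.82% called lower in KO and WT. At up to 1 CPM they were 0.0031 in KO and -0.13 in WT, and over 100 CPM -0.19 and -0.28, so the KO median was lowest at 10 to 30 CPM, at -0.21. Other peaks at 30 to 100 CPM came close to promoter peaks of that level, with a median of -0.16 in KO and -0.21 in WT. Below 30 CPM the gap was wider: at 10 to 30 CPM promoter peaks had -0.21 and other peaks -0.08 in WT. No test was made of these medians. By length, promoter peaks under 300 bases had a WT median of -0.05, against the -0.21 of all promoter peaks. The 432 tested peaks with listed start sites on both strands were called lower in 68.1% of cases in WT, against 42.2% of those with start sites on 1 strand, and their median level was also higher, at 33.6 against 16.3 CPM.

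**Figure D3:**
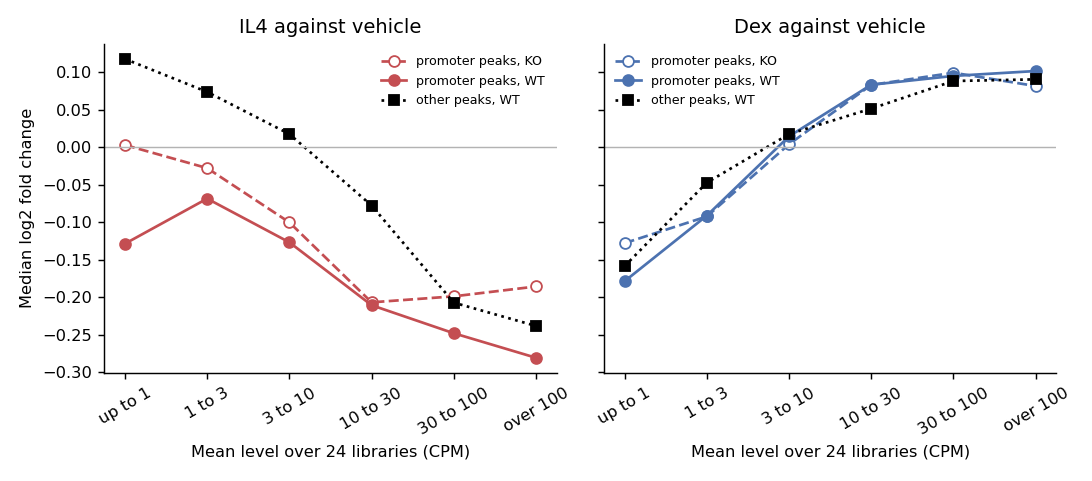
Median log2 fold change against vehicle of peaks grouped by their mean level in CPM, for IL4 (left) and Dex (right). Lines show promoter peaks in KO and WT macrophages and other peaks in WT. With TMM on all peaks and IL4 the WT promoter median is -0.13 at up to 1 CPM, -0.07 at 1 to 3 CPM and -0.28 over 100 CPM, while the KO median is -0.21 at 10 to 30 CPM and -0.19 over 100 CPM. With Dex the WT median runs from -0.18 at up to 1 CPM to 0.10 over 100 CPM.

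Peaks that escaped the fall were more often weak, short and away from the start site. Of the promoter peaks centred over 500 and up to 1000 bases upstream, 12.1% were higher with IL4 in KO and 14.3% in WT. Of those centred at 0 to 100 bases downstream 3.18% were higher in KO and 3.72% in WT. The far group was also weaker, with a median level of 4.28 CPM against 20.1 CPM near the start. Above 30 CPM higher calls were rare: of 4301 promoter peaks, 53 were called higher in both genotypes and 2444 lower in both. A RefSeq window within 100 bases of the listed start was at hand for 8318 of the tested promoter peaks (59.98%), under the 80% needed, so a check of base composition over all promoter peaks is void. The peaks with a window were also the stronger ones, at a median of 22.9 CPM against 7.03 CPM for those without. Within them alone, 13.3% of 1645 CpG-poor promoters were higher with IL4 in WT, against 1.51% of 3782 CpG-rich ones. The shares called lower were 27.0% and 63.9%. At 10 to 30 CPM, where both classes are common, 34.7% of the CpG-poor and 60.4% of the CpG-rich promoters were lower. CpG-rich here means at least 55% G and C with an observed to expected CpG ratio of at least 0.75, and CpG-poor a ratio below 0.48.

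The motif letters shown above were counted on both strands in the 250 bases before the start of these 8318 peaks. The STAT6 letters were in 11.7% of the 264 that were higher with IL4 in both genotypes, in 3.87% of the 3076 that were lower in both, in 4.74% of all 8318 and in 5.85% of all 32851 RefSeq windows. TGANTCA, the AP-1 site, was in 12.9% of those higher with IL4, 4.16% of those lower, 5.12% of the 8318 and 6.75% of all windows. The GC box GGGCGG ran the other way, at 39.4% of those higher, 68.3% of those lower, 60.4% of the 8318 and 32.7% of all windows. CCGGAAG, the ETS site, was in 3.41% of those higher and 14.99% of those lower, in 12.3% of the 8318 and in 6.91% of all windows. ACANNNTGT was in 6.06% of the 330 peaks higher with Dex in both genotypes, 5.10% of the 98 lower with Dex in both, 3.34% of the 8318 and 5.84% of all windows. The peaks higher with IL4 in both genotypes held it as often as those higher with Dex, at 6.06%. These shares are given with no test and were not split by base composition.

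The promoters with the largest rises under IL4 were weak with vehicle. Called higher in both genotypes with no overlap between the 4 libraries of each group were 473 promoter peaks, where 10.7% of all peaks met that rule. The peak of Klrb1a (chr6:128622819-128623355), which encodes a lectin-like receptor best known from natural killer cells, had 17.4, 19.0, 13.5 and 13.5 CPM in KO macrophages with IL4, against 2.36, 2.55, 2.35 and 1.65 CPM with vehicle. Klrb1a in WT had 15.5, 14.9, 18.8 and 15.3 CPM with IL4, against 1.31, 0.782, 1.39 and 2.16 CPM with vehicle. Klrb1a showed this rise with no overlap of libraries in either genotype, at log2 fold changes of 2.82 ± 0.16 (SE) in KO and 3.49 ± 0.17 in WT (edgeR adjusted p of 3.7e-27 and 6.0e-31). Atp6v0d2 (chr4:19922236-19922761) encodes a subunit of the vacuolar proton pump that takes part in macrophage fusion. Its peak had 20.4, 20.6, 19.5 and 20.6 CPM in KO macrophages with IL4, against 4.10, 2.98, 2.75 and 2.93 CPM with vehicle. Atp6v0d2 in WT had 20.3, 21.9, 24.3 and 20.5 CPM with IL4, against 1.69, 2.12, 2.35 and 2.78 CPM with vehicle. Atp6v0d2 showed this rise with no overlap of libraries in either genotype, at log2 fold changes of 2.68 ± 0.15 (SE) in KO and 3.30 ± 0.16 in WT (edgeR adjusted p of 3.6e-25 and 7.0e-29). Il20rb, a subunit of the IL20 receptor, averaged 3.86 ± 0.374 CPM with IL4 and 0.596 ± 0.145 CPM with vehicle in KO (SD, n = 4 each). In WT it averaged 3.39 ± 0.443 CPM with IL4 and 0.529 ± 0.187 CPM with vehicle. The rest of the 10 largest rises were at 1700022A21Rik, Tep1, H2-Ea-ps, Gm6116, Nr2c2ap, Mcf2l and H1fnt, with log2 fold changes between 2.10 and 2.68 in KO and between 2.14 and 3.16 in WT. All 10 had a mean level under 10 CPM.

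Strong promoters that rose with IL4 included those of Cish and Socs1, feedback inhibitors of cytokine signalling. Genes at 30 CPM or more were ranked separately, a choice made after the values were seen. Cish (chr9:107295597-107297065), a STAT-induced inhibitor of cytokine receptors, had 50.0, 54.0, 50.0 and 52.5 CPM in KO macrophages with IL4, against 29.3, 27.7, 28.1 and 24.2 CPM with vehicle. Cish in WT had 56.9, 49.5, 51.0 and 52.0 CPM with IL4, against 29.4, 30.1, 26.5 and 29.2 CPM with vehicle. Cish showed this rise with no overlap of libraries in either genotype, at log2 fold changes of 0.92 ± 0.07 (SE) in KO and 0.86 ± 0.07 in WT (edgeR adjusted p of 2.0e-19 and 2.6e-18). Socs1 (chr16:10784837-10786628), an inhibitor of Janus kinases, had 98.9, 120.0, 111 and 125 CPM in KO macrophages with IL4, against 65.5, 66.4, 69.2 and 70.7 CPM with vehicle. Socs1 in WT had 119, 113, 112 and 117 CPM with IL4, against 82.6, 72.1, 65.2 and 71.1 CPM with vehicle. Socs1 showed this rise with no overlap of libraries in either genotype, at log2 fold changes of 0.74 ± 0.07 (SE) in KO and 0.66 ± 0.07 in WT (edgeR adjusted p of 3.2e-15 and 2.4e-13). Gpnmb (chr6:49035678-49037478), a transmembrane glycoprotein of lipid-laden macrophages, had 41.7, 38.7, 38.1 and 36.9 CPM in KO macrophages with IL4, against 27.7, 23.8, 23.8 and 19.6 CPM with vehicle. Gpnmb in WT had 36.5, 36.8, 36.0 and 41.5 CPM with IL4, against 20.0, 21.7, 22.2 and 22.4 CPM with vehicle. Gpnmb showed this rise with no overlap of libraries in either genotype, at log2 fold changes of 0.72 ± 0.08 (SE) in KO and 0.81 ± 0.08 in WT (edgeR adjusted p of 1.2e-12 and 8.1e-15). Cdh23, a cadherin gene, and Parvg, which encodes an actin-linked adaptor, led this group with log2 fold changes of 0.99 and 0.90 in KO and 1.15 and 1.03 in WT. The Cdh23 peak lies 390835 bases from the Cdh23 start in the RefSeq table. The 10 strongest also held 4831407H17Rik, the kinase gene Fam20c, 0610040F04Rik, the engulfment adaptor gene Elmo2 and the phosphoinositide phosphatase gene Synj2, between 0.59 and 0.80 in KO and between 0.59 and 1.04 in WT.

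For gene lists, each gene was counted by its promoter peak nearest a start site, and the lists were drawn up from textbook roles with earlier results of these data known. Over all 11909 genes with a tested promoter peak 4.73% were higher and 39.0% lower with IL4 in KO, and 5.23% and 46.5% in WT. Of 41 genes of the list of IL4 and STAT6 targets, 21 were higher and 5 lower in KO, and 22 higher and 6 lower in WT, with a median log2 fold change of 0.36 in KO and 0.32 in WT. With TMM on promoter peaks alone 26 higher and 2 lower were called in KO and 26 higher and 0 lower in WT. Slc7a2 (chr8:40861648-40862944), a transporter of cationic amino acids such as arginine, had 23.9, 29.9, 28.2 and 29.8 CPM in KO macrophages with IL4, against 6.71, 5.61, 6.80 and 6.51 CPM with vehicle. Slc7a2 in WT had 30.6, 27.8, 30.4 and 30.1 CPM with IL4, against 8.07, 7.60, 6.09 and 6.60 CPM with vehicle. Slc7a2 showed this rise with no overlap of libraries in either genotype, at log2 fold changes of 2.15 ± 0.10 (SE) in KO and 2.05 ± 0.10 in WT (edgeR adjusted p of 1.1e-31 and 8.5e-32). Pdcd1lg2 (chr19:29410506-29411176), the PD-1 ligand PD-L2 whose promoter is printed above, had 2.01, 3.702, 4.34 and 3.44 CPM in KO macrophages with IL4, against 0.124, 0.994, 1.44 and 0.825 CPM with vehicle. Pdcd1lg2 in WT had 3.39, 4.51, 4.18 and 5.22 CPM with IL4, against 0.768, 0.894, 0.534 and 1.34 CPM with vehicle. Pdcd1lg2 showed this rise with no overlap of libraries in either genotype, at log2 fold changes of 1.97 ± 0.28 (SE) in KO and 2.29 ± 0.27 in WT (edgeR adjusted p of 2.6e-08 and 3.9e-11). The other printed promoters of this set averaged 9.70 ± 1.46 CPM with IL4 and 4.46 ± 0.535 CPM with vehicle in KO for Tfec, a transcription factor of the lysosomal family. In KO, Clec7a, the beta-glucan receptor, averaged 18.3 ± 0.919 CPM with IL4 and 9.01 ± 0.934 CPM with vehicle, and Itgax, the integrin CD11c, 42.1 ± 2.71 CPM with IL4 and 16.6 ± 2.12 CPM with vehicle. The log2 fold changes of Tfec, Clec7a and Itgax were 1.15, 1.02 and 1.35 in KO and 1.40, 0.91 and 1.25 in WT. Matk, a tyrosine kinase, reached 1.43 in KO and 1.94 in WT. Among the signalling genes of this list Stat6, at 56.7 CPM, had -0.35 in KO and -0.26 in WT, and Jak1, at 40.1 CPM, had -0.18 and -0.27, beside medians of -0.18 and -0.22 over all genes.

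Promoters of widely used genes fell together, by small amounts, relative to the bulk of all peaks, and fewer of them did so relative to the bulk of promoters. None of the genes of the 6 lists of basic cell functions was higher with IL4 in either genotype. Lower were 23 of 40 in KO and 23 in WT of the transcription machinery, 24 of 36 in KO and 25 in WT of the chromatin regulators and 22 of 30 in KO and 21 in WT of the factors that bind promoters. For genes of the cytosolic ribosome the numbers were 26 of 30 in KO and 20 in WT, for the respiratory chain 17 of 32 in KO and 21 in WT and for the proteasome 17 of 26 in KO and 21 in WT. The medians of the 6 lists lay between -0.23 and -0.28 in WT, near the -0.22 of all genes. With TMM on promoter peaks alone 2 of the machinery, 8 of the chromatin regulators, 11 of the promoter-binding factors, 5 of the ribosomal, 2 of the respiratory and 2 of the proteasome genes were lower in WT. Higher under that scaling were 2 of the chromatin regulators, 4 of the promoter-binding factors and 1 of the respiratory genes. Rps2, a protein of the small ribosomal subunit, had 33.0, 35.7, 34.2 and 39.0 CPM in KO macrophages with IL4, against 39.7, 44.4, 40.7 and 46.7 CPM with vehicle. Rps2 in WT had 35.3, 36.0, 34.2 and 33.2 CPM with IL4, against 46.2, 44.8, 48.2 and 43.7 CPM with vehicle. Rps2 showed this fall with no overlap of libraries in either genotype, at log2 fold changes of -0.28 ± 0.07 (SE) in KO and -0.40 ± 0.07 in WT (edgeR adjusted p of 0.0017 and 3.6e-06). Gtf2a2, a subunit of the general factor TFIIA, had log2 fold changes of -0.51 in KO and -0.47 in WT, Suz12, a Polycomb subunit, -0.43 and -0.48, Zfp143, a zinc finger factor of promoters, -0.23 and -0.38, and the proteasome ATPase Psmc2 -0.32 and -0.40.

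The largest falls under IL4 included a pair of formyl peptide receptor genes. Fpr1 (chr17:17883712-17884389), the receptor of bacterial formyl peptides, had 3.36, 2.19, 1.504 and 1.72 CPM in KO macrophages with IL4, against 9.20, 8.80, 8.63 and 9.07 CPM with vehicle. Fpr1 in WT had 1.82, 2.34, 1.53 and 2.33 CPM with IL4, against 10.6, 7.82, 6.62 and 8.24 CPM with vehicle. Fpr1 showed this fall with no overlap of libraries in either genotype, at log2 fold changes of -2.04 ± 0.19 (SE) in KO and -2.04 ± 0.19 in WT (edgeR adjusted p of 7.2e-13 and 6.5e-13). Its neighbour Fpr2, a receptor of the same family, had -1.44 in KO and -1.56 in WT. The rest of the 10 largest were 2210414B05Rik, Urah, Mir6352, Snord85, Daam1, Slc13a3, 2410089E03Rik and Zfp811, with means between 1.09 CPM for Daam1 and 9.18 CPM for Slc13a3. Called lower in both genotypes with no overlap of libraries were 2852 promoter peaks, where 6.64% of all peaks met that rule. At 30 CPM or more, the largest fall by the smaller of both genotypes was at Bnip3 (chr7:138909134-138910220), a mitophagy receptor induced by low oxygen, with 37.6, 34.8, 36.7 and 36.1 CPM in KO macrophages with IL4, against 65.9, 71.7, 65.5 and 78.6 CPM with vehicle. Bnip3 in WT had 35.1, 35.9, 32.3 and 34.6 CPM with IL4, against 66.7, 75.2, 78.1 and 65.8 CPM with vehicle. Bnip3 showed this fall with no overlap of libraries in either genotype, at log2 fold changes of -0.96 ± 0.07 (SE) in KO and -1.05 ± 0.07 in WT (edgeR adjusted p of 2.0e-21 and 1.1e-23). C5ar1 (chr7:16258870-16259625), the receptor of complement C5a, had 19.9, 19.9, 19.9 and 17.1 CPM in KO macrophages with IL4, against 33.4, 37.3, 31.3 and 35.5 CPM with vehicle. C5ar1 in WT had 16.9, 19.5, 17.2 and 18.4 CPM with IL4, against 34.4, 37.2, 39.9 and 35.04 CPM with vehicle. C5ar1 showed this fall with no overlap of libraries in either genotype, at log2 fold changes of -0.85 ± 0.08 (SE) in KO and -1.01 ± 0.08 in WT (edgeR adjusted p of 8.2e-16 and 6.3e-20). Nfkbiz, an inflammatory cofactor of NF-kB, and Cd14, the coreceptor of lipopolysaccharide, were among these 10 too, at -0.85 and -0.73 in KO and -0.93 and -0.73 in WT. Nab1, Trim59, Hist1h3g, Faf1, Tiam1 and Coro1a made up the rest, between -0.96 and -0.73 in KO and between -1.07 and -0.73 in WT. The Tiam1 peak lies 169232 bases from the RefSeq start of Tiam1, and that of Daam1 lies 87910.5 bases from that of Daam1.

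Lower calls outnumbered higher ones in 4 lists of regulated genes too, as they did over all genes, of which 39.0% were lower with IL4 in KO and 46.5% in WT. Of 24 immediate-early and AP-1 genes there were 1 higher and 21 lower in KO and 1 higher and 20 lower in WT with IL4, and with TMM on promoter peaks alone 1 higher and 11 lower in WT. Their median was -0.35 in KO and -0.36 in WT, against -0.18 and -0.22 over all genes. Egr3 and Nr4a1, which encode transcription factors of the first response to a stimulus, had -1.18 and -0.58 in KO and -0.93 and -0.68 in WT, while Maff, a small MAF factor, rose by 0.96 and 0.53. Of 22 cell cycle genes there were 1 higher and 18 lower in KO and 1 higher and 16 lower in WT, and 2 higher and 9 lower in WT with the promoter-only scaling. The replication helicase gene Mcm6 had -0.63 in KO and -0.61 in WT, and the cell cycle gene that rose was the cyclin Ccnd3, by 0.88 and 1.35. Of 39 inflammatory and NF-kB targets there were 4 higher and 16 lower in KO and 5 higher and 20 lower in WT, and 6 higher and 8 lower in WT with the promoter-only scaling. Their share called lower, 41.0% in KO and 51.3% in WT, was near that of all genes. Il1b, the cytokine interleukin 1 beta, had 4.22, 2.87, 3.89 and 3.44 CPM in KO macrophages with IL4, against 5.22, 4.54, 6.15 and 6.51 CPM with vehicle, and in WT 4.05, 3.51, 4.08 and 3.35 CPM with IL4, against 6.61, 6.93, 6.41 and 7.01 CPM with vehicle. Il1b showed this fall with no overlap of libraries in either genotype, at log2 fold changes of -0.63 ± 0.17 (SE) in KO and -0.85 ± 0.16 in WT (edgeR adjusted p of 0.0018 and 6.7e-06). The chemokine gene Ccl4 had -0.97 in KO and -1.09 in WT, whereas Il12b, a subunit of interleukin 12, had 1.06 and 1.34 at a mean level of 1.13 CPM over the 24 libraries. Of 35 glucocorticoid receptor targets there were 2 higher and 20 lower in KO and 2 higher and 22 lower in WT, and 6 higher and 10 lower in WT with the promoter-only scaling. The largest change of this list was a rise at the weaker of 2 peaks of Mertk, a phagocyte receptor gene, by 1.46 in KO and 1.27 in WT. Lcn2, a lipocalin gene, had -0.81 in KO and -0.75 in WT. Irak3, an inhibitor of Toll-like receptor signals, and the metallothionein Mt2 had -0.66 and -0.54 in KO and -0.89 and -0.83 in WT.

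The macrophage, lysosome, lipid and antigen presentation lists had calls in both directions with IL4, while interferon-stimulated and clock genes had lower calls alone. Of 28 macrophage genes there were 5 higher and 10 lower in KO and 5 higher and 11 lower in WT, and 8 higher and 6 lower in WT with the promoter-only scaling, which turned their median from negative to positive. Mertk belongs to this list too and had its largest change, the rise given above. The fractalkine receptor Cx3cr1 and the lineage factor Spi1 (PU.1) had -1.001 and -0.47 in KO and -0.95 and -0.57 in WT. Of 29 lysosome genes there were 4 higher and 11 lower in KO and 3 higher and 13 lower in WT, and 10 higher and 1 lower in WT with the promoter-only scaling, which turned the median positive. Of 29 genes of lipid and cholesterol handling there were 3 higher and 11 lower in KO and 3 higher and 10 lower in WT, and 5 higher and 1 lower in WT with that scaling, the median again turning positive. The fatty acid receptor Cd36 rose by 1.18 in KO and 1.12 in WT, and the lipoprotein receptor Scarb1 had -0.51 and -0.61. Antigen presentation, with 12 genes, had 2 higher and 2 lower in KO and 4 higher and 2 lower in WT; its master regulator Ciita had 0.55 and 0.61. With the promoter-only scaling there were 5 higher and 1 lower in WT. Interferon-stimulated genes, 34 in number, had 0 higher and 7 lower in KO and 0 higher and 8 lower in WT. In WT 0 higher and 0 lower remained with the promoter-only scaling. Their shares called lower, 20.6% in KO and 23.5% in WT, were under the 39.0% and 46.5% of all genes. Their median log2 fold change, -0.18 in KO and -0.23 in WT, was near the -0.18 and -0.22 of all genes. The lower number of calls thus does not show a smaller fall. Their summed level varied widely between WT libraries, from 567 to 788 CPM with vehicle, against 534 to 595 CPM in KO. The 13 clock genes had 0 higher and 5 lower in KO and 0 higher and 6 lower in WT. Their shares called lower, 38.5% and 46.2%, were near those of all genes. With the promoter-only scaling 3 clock genes were higher and 2 lower in WT.

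**Figure D4:**
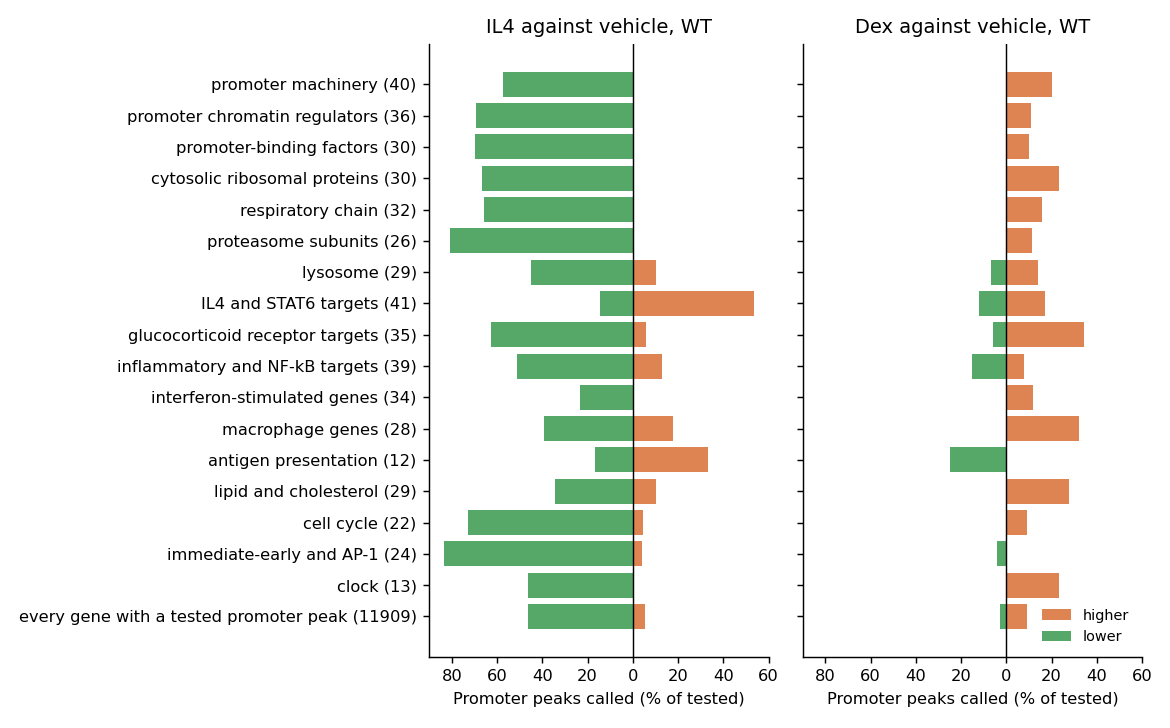
Percentage of the tested promoter peaks of each gene list called higher (right of 0) or lower (left of 0) in WT macrophages with IL4 and with Dex, with the number of genes in brackets and all genes in the bottom row. With IL4 the list of IL4 and STAT6 targets has 53.7% higher, and with Dex the glucocorticoid receptor targets have 34.3% higher. Both panels use TMM on all peaks.

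Dex raised more promoters than it lowered, mostly by little, with TMM on all peaks but not with TMM on promoter peaks alone. In KO macrophages 951 promoter peaks were higher and 343 lower with Dex than with vehicle, or 6.86% and 2.47%, where 6.97% and 6.63% of all peaks were called. In WT 1230 were higher and 432 lower, or 8.87% and 3.12%, where 8.56% and 8.08% of all peaks were called. The share of promoter peaks called higher was thus near that of all peaks, and the share called lower was under it. The median log2 fold change was 0.07 in both genotypes, against -0.03 in KO and -0.01 in WT for other peaks. The called rises had a median of 0.28 in KO and 0.28 in WT, and the called falls -0.57 and -0.55. The excess of rises shrank or went away under 3 other scalings. TMM on promoter peaks alone gave 426 higher and 549 lower in KO and 581 and 646 in WT. Total counts gave 545 and 494 in KO and 711 and 608 in WT, and loess offsets 460 and 485 in KO and 630 and 626 in WT. The count of rises in KO also moved with single libraries, to 515 without KO Dex replicate 4 and to 521 without KO vehicle replicate 1. Of the 13867 promoter peaks tested, 549 were called higher in both genotypes, or 57.7% of the KO list and 44.6% of the WT list. Of all 130103 peaks tested 6471 (4.97%) were, out of 9071 higher in KO and 11137 in WT. Called lower in both were 204 promoter peaks, or 59.5% of the KO list and 47.2% of the WT list. Of all peaks tested 5599 (4.3%) were, out of 8623 lower in KO and 10518 in WT.

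Fkbp5 and Zbtb16, known targets of the glucocorticoid receptor, led the rises under Dex. Called higher in both genotypes with no overlap of libraries were 359 promoter peaks, where 3.39% of all peaks met that rule. Fkbp5 encodes a chaperone that restrains the glucocorticoid receptor, and its most responsive peak (chr17:28518014-28518761) had 43.4, 48.4, 48.2 and 52.4 CPM in KO macrophages with Dex, against 6.22, 3.90, 6.67 and 5.77 CPM with vehicle. Fkbp5 in WT had 46.9, 51.0, 56.3 and 51.6 CPM with Dex, against 3.76, 6.15, 4.16 and 4.23 CPM with vehicle. Fkbp5 showed this rise with no overlap of libraries in either genotype, at log2 fold changes of 3.15 ± 0.11 (SE) in KO and 3.51 ± 0.11 in WT (edgeR adjusted p of 2.6e-43 and 3.9e-46). This peak is centred 863.5 bases upstream of the listed start, and the Fkbp5 start in the RefSeq table lies 32238.5 bases from it. At that other start the peak averaged 71.6 CPM with Dex and 59.0 CPM with vehicle in KO, and 77.7 and 58.8 CPM in WT. Zbtb16 (chr9:48835579-48836733), the zinc finger factor PLZF, had 34.3, 38.7, 32.3 and 32.3 CPM in KO macrophages with Dex, against 7.33, 8.94, 7.32 and 7.42 CPM with vehicle. Zbtb16 in WT had 32.4, 44.5, 41.5 and 37.5 CPM with Dex, against 7.22, 9.39, 10.0 and 8.24 CPM with vehicle. Zbtb16 showed this rise with no overlap of libraries in either genotype, at log2 fold changes of 2.13 ± 0.10 (SE) in KO and 2.16 ± 0.10 in WT (edgeR adjusted p of 1.3e-29 and 1.3e-30). F13a1 (chr13:37048715-37050011), the A subunit of coagulation factor XIII and a marker of alternatively activated macrophages, had 14.7, 19.4, 20.4 and 21.0 CPM in KO macrophages with Dex, against 5.72, 5.61, 5.76 and 5.59 CPM with vehicle. F13a1 in WT had 18.2, 23.6, 19.2 and 20.1 CPM with Dex, against 4.61, 5.59, 3.95 and 5.98 CPM with vehicle. F13a1 showed this rise with no overlap of libraries in either genotype, at log2 fold changes of 1.75 ± 0.12 (SE) in KO and 1.99 ± 0.13 in WT (edgeR adjusted p of 1.6e-21 and 1.9e-24). The rest of the 10 were Zc3h3, Gm14085, Iqck, Fry, Nt5c2, Usp54 and Shtn1, between 1.41 and 2.09 in KO and between 1.43 and 2.34 in WT. The peaks assigned to Iqck, Fry and Nt5c2 lie 82010.5, 206442 and 28083 bases from the RefSeq starts of these genes.

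At 30 CPM or more the rises with Dex were smaller. Klf9 (chr19:23140385-23141696), a Krüppel-like factor that the receptor induces in many tissues, had 73.7, 78.9, 86.1 and 92.5 CPM in KO macrophages with Dex, against 45.2, 49.3, 49.4 and 51.0 CPM with vehicle. Klf9 in WT had 84.4, 88.6, 92.9 and 79.7 CPM with Dex, against 49.8, 49.6, 47.9 and 48.4 CPM with vehicle. Klf9 showed this rise with no overlap of libraries in either genotype, at log2 fold changes of 0.76 ± 0.07 (SE) in KO and 0.81 ± 0.07 in WT (edgeR adjusted p of 6.7e-17 and 2.4e-18). C1qb (chr4:136885688-136886740), a chain of complement C1q that helps to clear dying cells, had 36.0, 46.4, 41.7 and 41.2 CPM in KO macrophages with Dex, against 22.6, 31.4, 23.5 and 25.8 CPM with vehicle. C1qb in WT had 46.1, 56.9, 58.8 and 46.4 CPM with Dex, against 31.6, 29.4, 35.8 and 31.1 CPM with vehicle. C1qb showed this rise with no overlap of libraries in either genotype, at log2 fold changes of 0.66 ± 0.09 (SE) in KO and 0.69 ± 0.09 in WT (edgeR adjusted p of 6.7e-07 and 1.1e-07). 4831407H17Rik led the group with 1.05 in KO and 1.39 in WT, followed by Cyp46a1, which hydroxylates cholesterol, and Ifi207, an interferon-inducible gene, with 0.97 and 0.86 in KO and 0.94 and 0.91 in WT. Mertk, the receptor for phosphatidylserine bridging proteins in the uptake of dying cells, had 2 promoter peaks that behaved differently. The stronger one (chr2:128698007-128699397) averaged 48.8 ± 0.814 CPM with Dex, 36.1 ± 2.65 with IL4 and 31.7 ± 2.02 with vehicle in KO, and 49.5 ± 1.47, 34.96 ± 3.46 and 32.5 ± 1.11 CPM in WT. The weaker one, at another listed start (chr2:128770778-128771673), averaged 2.70 ± 0.326 CPM with Dex, 8.10 ± 0.720 with IL4 and 2.89 ± 0.284 with vehicle in KO, and 2.73 ± 0.523, 8.86 ± 0.843 and 3.67 ± 0.0830 CPM in WT. So the mean was highest with Dex at the stronger peak and with IL4 at the weaker one. A RefSeq start of Mertk lies in the stronger peak, 213 bases from its midpoint. How far the weaker peak lies from a RefSeq start was not looked up. Tns1, Jdp2, Tmem104 and Cabyr completed the group, between 0.58 and 0.64 in KO and between 0.60 and 0.67 in WT. The Tns1 peak lies 125801 bases from the RefSeq start of Tns1.

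Over all genes with a tested promoter peak 6.93% were higher and 2.14% lower with Dex in KO, and 9.002% and 2.70% in WT. Of 35 glucocorticoid receptor targets there were 11 higher and 0 lower in KO and 12 higher and 2 lower in WT, and 9 higher and 3 lower in WT with TMM on promoter peaks alone. Beside Zbtb16 and Klf9 the largest in WT were Lcn2, which encodes a lipocalin that binds bacterial siderophores, with 0.68 in KO (edgeR adjusted p = 0.062) and 0.76 in WT, and Hif3a, a hypoxia-pathway factor, with 0.61 and 0.58. The Hif3a peak lies 6195.5 bases from the RefSeq start of Hif3a. In KO the next after Klf9 was Tsc22d3, the leucine zipper protein GILZ that the receptor induces, with 0.66 in KO (edgeR adjusted p = 2.6e-07) and 0.56 in WT (edgeR adjusted p = 7.5e-06). Of 28 macrophage genes there were 7 higher and 1 lower in KO and 9 higher and 0 lower in WT, and 4 higher and 1 lower in WT with the promoter-only scaling. Msr1, a scavenger receptor, had 0.60 in KO and 0.55 in WT. Of 29 lipid and cholesterol genes there were 4 higher and 0 lower in KO and 8 higher and 0 lower in WT, with Apoe, the apolipoprotein, at 0.60 and 0.74, and 3 higher and 1 lower in WT with that scaling. Among IL4 and STAT6 targets there were 9 higher and 4 lower in KO and 7 higher and 5 lower in WT with Dex. Mrc1 (chr2:14228633-14229755), the mannose receptor CD206, had 11.8, 16.2, 12.3 and 15.5 CPM in KO macrophages with Dex, against 7.33, 9.37, 9.94 and 7.70 CPM with vehicle. Mrc1 in WT had 14.4, 17.0, 19.8 and 16.3 CPM with Dex, against 10.4, 8.49, 9.08 and 9.48 CPM with vehicle. Mrc1 showed this rise with no overlap of libraries in either genotype, at log2 fold changes of 0.72 ± 0.12 (SE) in KO and 0.83 ± 0.12 in WT (edgeR adjusted p of 8.3e-06 and 1.2e-07). Its log2 fold changes with IL4 were 0.89 and 0.99. Chil3, a chitinase-like protein, had 0.91 in KO and 1.08 in WT with Dex, beside 1.52 and 1.59 with IL4, while Atp6v0d2 had -0.63 and -0.75 with Dex. In the 6 lists of basic functions no gene was lower with Dex in either genotype. Between 3 and 8 genes of a list were higher in WT, or between 0 and 2 with the promoter-only scaling. In KO between 1 and 5 genes of a list were higher. Among them were 1 of 30 ribosomal and 1 of 32 respiratory genes, against 7 and 5 in WT. Of the other lists, clock genes had 3 higher and 0 lower in KO and 3 higher and 0 lower in WT, interferon-stimulated genes 2 higher and 0 lower in KO and 4 higher and 0 lower in WT, lysosome genes 4 higher and 2 lower in KO and 4 higher and 2 lower in WT, cell cycle genes 1 higher and 0 lower in KO and 2 higher and 0 lower in WT and immediate-early genes 1 higher and 0 lower in KO and 0 higher and 1 lower in WT. With the promoter-only scaling the WT counts were 3 higher and 1 lower for clock, 2 higher and 1 lower for interferon-stimulated, 3 higher and 3 lower for lysosome, 1 higher and 0 lower for cell cycle and 0 higher and 2 lower for immediate-early genes.

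The chemokine gene Ccl4 was among the largest falls with Dex. Of 39 inflammatory and NF-kB targets there were 3 higher and 8 lower in KO and 3 higher and 6 lower in WT, and 2 higher and 7 lower in WT with the promoter-only scaling. Ccl4 (chr11:83662300-83662927), the chemokine MIP-1 beta, had 11.7, 9.84, 9.60 and 9.77 CPM in KO macrophages with Dex, against 21.6, 21.5, 16.1 and 23.9 CPM with vehicle. Ccl4 in WT had 16.8, 7.57, 8.37 and 9.38 CPM with Dex, against 31.1, 24.0, 22.1 and 20.3 CPM with vehicle. Ccl4 showed this fall with no overlap of libraries in either genotype, at log2 fold changes of -1.05 ± 0.19 (SE) in KO and -1.17 ± 0.18 in WT (edgeR adjusted p of 6.1e-04 and 1.2e-04). Called lower in both genotypes with no overlap of libraries were 118 promoter peaks, where 2.57% of all peaks met that rule. The 10 largest held Snord85, Urah, Apbb2, AU040972, Daam1, Camsap3, Smco3, Uchl1 and Dpf2 beside Ccl4, between -1.05 and -1.82 in KO and between -1.01 and -2.05 in WT. The Apbb2 peak lies 76141.5 bases from the RefSeq start of Apbb2, and that of Dpf2 lies 5160 bases from that of Dpf2. At 30 CPM or more 12 peaks met the rule, against 151 for rises. Rac2 (chr15:78571514-78573682), the GTPase of the phagocyte oxidase, had 36.8, 37.9, 41.4 and 44.3 CPM in KO macrophages with Dex, against 49.0, 51.7, 49.1 and 59.3 CPM with vehicle. Rac2 in WT had 43.5, 41.5, 40.1 and 38.3 CPM with Dex, against 57.2, 55.5, 50.6 and 45.4 CPM with vehicle. Rac2 showed this fall with no overlap of libraries in either genotype, at log2 fold changes of -0.38 ± 0.07 (SE) in KO and -0.36 ± 0.07 in WT (edgeR adjusted p of 3.8e-05 and 9.9e-05). The same group held Synj2, 4930515B02Rik, Glipr1, Polm, Basp1, Hcls1, Cyth4, Sestd1 and Micall1, between -0.23 and -0.38 in KO and between -0.27 and -0.50 in WT. Of antigen presentation genes there were 0 higher and 1 lower in KO and 0 higher and 3 lower in WT, with Cd74, the invariant chain of class II molecules, at -0.68 in KO and -0.72 in WT.

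Some promoters were lower with IL4 and higher with Dex in both genotypes. The 2 comparisons share the vehicle libraries, so the values of each are set side by side without a test between them. Ctla2a (chr13:60936412-60937179), a cysteine protease inhibitor, had 3.45, 5.89, 5.31 and 5.01 CPM with IL4, 18, 20.2, 16.3 and 15.2 CPM with Dex and 9.82, 12.2, 10.7 and 9.99 CPM with vehicle in KO. In WT it had 5.95, 4.68, 4.89 and 4.10 CPM with IL4, 13.2, 16.6, 19.4 and 15.2 CPM with Dex and 7.76, 8.83, 10.4 and 10.9 CPM with vehicle. Every library with IL4 was below, and every library with Dex above, all libraries with vehicle of its genotype. Icosl (chr10:78068928-78070142), the ligand of the costimulator ICOS, had 9.97, 7.93, 10.2 and 9.62 CPM with IL4, 28.7, 28.7, 23.6 and 27.4 CPM with Dex and 19.4, 22.2, 22.0 and 24.1 CPM with vehicle in KO. In WT it had 8.51, 9.07, 7.95 and 9.22 CPM with IL4, 25.6, 33.0, 30.0 and 26.8 CPM with Dex and 20.5, 23.1, 20.5 and 21.4 CPM with vehicle. The libraries with IL4 were apart from vehicle in both genotypes, and those with Dex were apart from vehicle in WT alone. Cyp46a1 (chr12:108333131-108334507) averaged 22.7 ± 0.994 CPM with IL4, 58.6 ± 4.49 CPM with Dex and 29.9 ± 1.21 CPM with vehicle in KO (SD, n = 4 each). In WT it averaged 24.5 ± 2.11 CPM with IL4, 65.9 ± 4.68 CPM with Dex and 34.2 ± 1.83 CPM with vehicle. C5ar1, described above for its fall with IL4, had log2 fold changes of 0.29 and 0.27 with Dex in KO and WT. Apoc2, Nt5dc2, Ms4a6b, Rab5c, Notch4 and Hif3a were the others of the 10 with the largest difference. With Dex they lay between 0.50 and 1.04 in KO and between 0.58 and 1.23 in WT, and with IL4 between -0.87 and -0.38 in KO and between -0.92 and -0.45 in WT. Of these, the Hif3a peak lies 6195.5 bases from the RefSeq start of its gene.

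**Figure D5:**
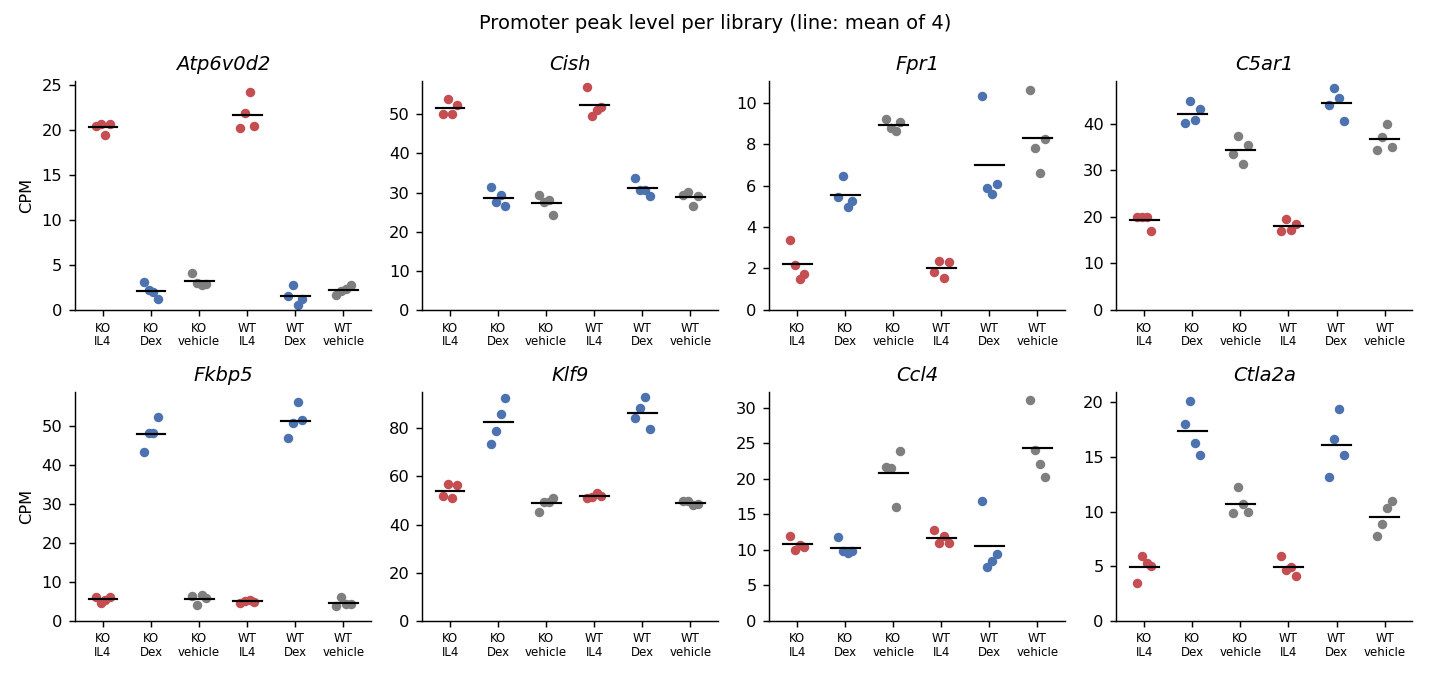
Level in CPM of 8 promoter peaks in each library by group, with the mean of 4 as a line. Atp6v0d2 and Cish are high with IL4, Fpr1 and C5ar1 low with IL4, Fkbp5 and Klf9 high with Dex, Ccl4 low with both, and Ctla2a low with IL4 and high with Dex. For Atp6v0d2 the means are 20.3 CPM with IL4 and 3.19 CPM with vehicle in KO.

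The responses of promoter peaks to IL4 and Dex did not differ detectably between GRIP1 KO and WT macrophages. No promoter peak was called for a different effect of IL4 between KO and WT, where 0.00231% of all peaks were called, or for a different effect of Dex, where 0.0% were (edgeR interaction terms). At an unadjusted p below 0.05 there were 388 promoter peaks for IL4, or 2.80%, and 277 for Dex, or 2.00%, and DESeq2 called 0 and 0. Both shares are under what a threshold of 0.05 gives with no difference at all, so the test may miss small differences. The median of the IL4 effect in KO minus that in WT was 0.03 on the log2 scale. Between the genotypes with vehicle 23 promoter peaks were higher and 29 lower in KO, where 0.304% and 0.312% of all peaks were. Of these promoter peaks 13 were on chromosome 9, 9 on chromosome X and 5 and 5 on chromosomes 1 and 5. These counts were not set against the number of peaks tested on each chromosome. The largest were at weak peaks: Speer8-ps1 averaged 0.291 ± 0.214 CPM in KO and 1.83 ± 0.432 CPM in WT with vehicle, and Olfr1263, an olfactory receptor gene, 1.63 ± 1.07 CPM in KO and 0.311 ± 0.209 CPM in WT. The Ncoa2 promoter peak (chr1:13372246-13374626) had 81.9, 88.8, 92.0 and 87.6 CPM in KO and 87.0, 85.6, 88.1 and 83.8 CPM in WT with vehicle, with a log2 fold change of 0.02 ± 0.06 (SE) and an edgeR adjusted p of 0.94. The groups overlapped, and since the labels do not say which exons are floxed, this promoter does not check the deletion.

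The promoters of macrophage genes were open throughout: 28 of the 30 listed genes had a tested promoter peak, among them Sirpa at 107 CPM, and those of Csf1r, Adgre1 and Cd68 had 22.4, 25.8 and 62.0 CPM. Of other cell types, 8 of 12 neutrophil genes, 7 of 10 of dendritic cells, 5 of 8 of B cells, 4 of 12 of T and NK cells, 2 of 9 of fibroblasts, 3 of 8 of mast cells and basophils and 4 of 9 of erythroid cells and megakaryocytes had one. Among those with none were the T cell genes Cd3e, Cd4 and Cd8a and the B cell genes Cd79a and Pax5. So were the fibroblast gene Col1a1 and the neutrophil genes Mpo and Elane. A promoter peak also needs a listed start site, and only 30 of 52 cytosolic ribosomal genes had a promoter peak. Having none therefore does not show that a promoter was closed. With Dex the neutrophil gene S100a8 was higher in both genotypes, by 0.67 in KO and 0.54 in WT on the log2 scale. The summed level of the 8 neutrophil genes was 60.9 to 78.4 CPM with Dex and 46.4 to 65.5 CPM with vehicle in KO, and 62.2 to 76.7 and 51.3 to 66.0 CPM in WT. With IL4 the sums of the lists of T and NK cells and of erythroid cells and megakaryocytes were higher, at 23.8 to 29.0 against 16.6 to 18.1 CPM and 37.5 to 40.8 against 29.0 to 30.0 CPM with vehicle in KO. In WT they were 25.6 to 31.3 against 15.7 to 19.5 CPM and 37.0 to 41.0 against 27.0 to 31.1 CPM with vehicle. In each list 1 gene was called higher with IL4, Klrb1c and Itga2b. The median log2 fold change of the T and NK cell list was 0.31 in KO and 0.27 in WT. That of the erythroid and megakaryocyte list was negative, at -0.16 and -0.24, although its sum was higher. The sum of the B cell list was 30.2 to 34.5 CPM with IL4 and 20.6 to 27.0 CPM with vehicle in KO, and 31.1 to 36.1 and 21.9 to 28.7 CPM in WT. In both genotypes Blnk of that list rose, by 0.77 in KO and 0.70 in WT, and Cd79b had -0.69 and -0.70. The median of the B cell list was -0.29 in KO and -0.44 in WT, although its sum was higher. The sum of the 2 fibroblast genes was 7.20 to 7.86 CPM with IL4 and 4.90 to 7.06 CPM with vehicle in KO, and 6.83 to 8.47 and 3.84 to 5.26 CPM in WT, with Pdgfrb called higher in both. The sum of the dendritic cell list was lower with IL4, at 64.1 to 67.6 CPM against 69.6 to 75.2 CPM with vehicle in KO. In WT it was 61.5 to 69.3 CPM against 73.0 to 77.6 CPM. Bst2 was called lower in both genotypes and Flt3 and Ly75 in WT. The list's median log2 fold change was -0.10 in KO and -0.21 in WT, against -0.18 and -0.22 over all genes. Called lower were 14.3% of the list in KO and 42.9% in WT, against 39.0% and 46.5% of all genes. The sums of the neutrophil list and of the mast cell and basophil list overlapped between IL4 and vehicle in both genotypes. The part of other cells in the results above was not tested.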

How the data were processed

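ATAC-seq libraries were sequenced with paired 50-base reads. Per the submitters' processing notes the tools were fastp, Bowtie2, SAMtools, MACS2, featureCounts and edgeR, on mm10. No versions are given in the sources used here, as far as these tools go. The deposited table holds raw counts per peak; the authors' comparison table gives log2 fold changes, a score and p-values or q-values, and was used here for its start sites alone, so its columns carry no result. Libraries held 5820149 to 21939330 counts in peaks. Peaks were kept by filterByExpr, scaled by TMM and tested in 1 fit over all 24 libraries with edgeR 4.0.16 (quasi-likelihood) in R 4.3.3, with Benjamini-Hochberg adjustment over all peaks tested; DESeq2 1.42.0 was an alternative. The fit was tested on simulated data. CPM values use the TMM-scaled library sizes. Promoters are named as the 10 with the largest smaller change of both genotypes, among peaks of at least 1 CPM called in both without overlap of libraries, and likewise at 30 CPM, an addition made after the values were seen; the 10 with the highest level and, per list, at most 4 genes of those with the largest called change are also named. Stat6, Jak1, Tfec, Clec7a, Itgax, Sirpa, Csf1r and Cd68 were named after their values were seen. Members and lists were chosen with earlier results of these data known. Replicates were compared and none were duplicates.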

Additional observations from a re-analysis of the deposited data

Results flagged for a closer look

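In 7 of the 156 groups of 4 libraries for which per-library values of the named peaks were examined, 1 library stood far from the other 3, by a gap of more than 0.829 of the group's range. Chance gives about 1 such group in 20. Klrb1a had 18.8 CPM in WT IL4 replicate 3, against 14.9 to 15.5 CPM in the other 3. Gpnmb had 41.5 CPM in WT IL4 replicate 4, against 36.0 to 36.8 CPM. Fpr1 had 10.3 CPM in WT Dex replicate 1, against 5.58 to 6.07 CPM. C5ar1 had 17.1 CPM in KO IL4 replicate 4, where the other 3 all had 19.9 CPM. Zbtb16 had 8.94 CPM in KO vehicle replicate 2, against 7.32 to 7.42 CPM. Mrc1 had 11.6 CPM in KO IL4 replicate 1, against 17.3 to 17.4 CPM. Ccl4 had 11.7 CPM in KO Dex replicate 1, against 9.60 to 9.84 CPM. The 7 values come from 7 different libraries.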

How the results depend on the processing

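No median over promoter peaks changed sign under an alternative, and neither did the 444 results on named peaks that were refitted. Not every named peak was among these results: those of the highest level, Stat6 and Jak1 were left out. The balance of calls and some list medians did change direction. With TMM on promoter peaks alone the higher calls outnumbered the lower ones with IL4 and the lower ones the higher ones with Dex, in both genotypes, and with loess offsets the lower ones did so with Dex in KO (460 higher and 485 lower). With IL4 the medians of the macrophage, lysosome and lipid lists turned positive in both genotypes with TMM on promoter peaks alone, and those of the lysosome and lipid lists with loess offsets too. Of 6660 alternative values of the 444 results on named peaks, 6200 kept their side of the threshold and 460 lost it. The median log2 fold change with IL4 in KO and WT was -0.13 and -0.15 with total counts, -0.0014 and -0.00073 with TMM on promoter peaks alone and -0.080 and -0.085 with loess offsets. That with Dex was 0.018 and 0.015, 0.00099 and 0.0025, and 0.0019 and 0.0023 under the same 3. The counts under these scalings that moved were, with IL4 and promoter peaks alone, 1607 higher and 1184 lower in KO and 1884 higher and 1440 lower in WT, and with loess 2350 and 2818 lower. Higher with Dex in KO and WT were 545 and 711 with total counts, 426 and 581 with promoter peaks alone (549 lower in KO) and 460 and 630 with loess. TMM on promoter peaks alone moved nearly all promoter peaks by the same amount, with IL4 in WT by 0.21 at the 5th and 0.21 at the 95th percentile. Loess offsets moved them by -0.13 and 0.26, for which the cause was not tested. DESeq2's Wald test called 627 higher with Dex in KO, for which the cause was not tested. Other definitions of a promoter change how many peaks are counted. At most 250 bases from a start, 377 and 412 were higher with IL4, 593 and 748 higher and 178 and 215 lower with Dex in KO and WT, and 29 differed between KO and WT with vehicle. At most 2000 bases, 1460 and 1628 were higher with IL4 (WT median -0.19) and 593 and 729 lower with Dex. Among peaks under 1000 bases long, 2407 and 2911 were lower with IL4 and 465 and 561 higher with Dex (WT median 0.049). The mean share of counts was 22.9%, 29.7% and 36.1% at 250, 500 and 2000 bases and 12.97% in peaks under 1000 bases long.

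Leaving out each library in turn gave 679 to 756 higher and 3852 to 5228 lower peaks with IL4 in KO and 776 to 845 and 5341 to 5591 in WT. With Dex it gave 515 to 1388 higher and 245 to 388 lower in KO and 873 to 1413 and 311 to 413 in WT. The medians stayed within -0.19 to -0.16 and -0.21 to -0.20 for IL4 and 0.05 to 0.09 and 0.06 to 0.09 for Dex in KO and WT. The lowest Dex count in KO, 515, came without KO Dex replicate 4, and without KO vehicle replicate 1 it was 521. Between genotypes the count with vehicle was 40 to 60, and no interaction was called in any of the 24 fits.

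With the replicate number as a block, 5191 and 6106 peaks were lower and 806 and 884 higher with IL4 in KO and WT, and 379 and 452 were lower and 1080 and 1327 higher with Dex. The block left 0 promoter peaks called for either interaction. Of 16 same-numbered pairs within a genotype, 6 had a correlation of deviations over 0.1, with a range of 0.00337 to 0.202. The own number was still the closest in 15 of the 16. The numbers may thus mark a weak pairing of libraries within a genotype, which the main fit left out. Few of the weak peaks were called: at up to 1 CPM 3.35% were called lower and 8.21% higher with IL4 in WT, at a median log2 fold change of -0.13.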
